A study of Homo sapiens with 10 samples.

Results

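The S100 genes encode small proteins, most of which bind calcium. Of these genes 10, S100A2, S100A3, S100A4, S100A6, S100A10, S100A11, S100A13, S100A14, S100A16 and S100P, were examined in cisplatin-sensitive T24 cells and cisplatin-resistant T24R2 cells. They were chosen by name and matched by Ensembl identifier among the 61533 genes of the count tables, and 8 of the 10 were among the 16181 genes with enough counts to be tested. T24 is a human bladder cancer cell line, and T24R2 is a derivative of it that was selected by repeated passage in cisplatin, a platinum drug that crosslinks DNA. RNA was sequenced from 5 libraries of each line at day 3 of culture, both grown in RPMI with fetal bovine serum. The study keeps T24R2 in cisplatin, while the sample descriptions list the same medium for both lines, so the line and the presence of the drug cannot be told apart. T24R2 is a single resistant line, and no source used here says that the replicates came from separate cultures, so p-values measure the spread between these libraries, which may be technical.

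Most S100 proteins, but not all, are dimers that bind calcium through a pair of EF-hand motifs, open a hydrophobic surface and then dock onto target proteins. S100 proteins have no enzyme activity of their own. Inside the cell they bind annexins, cytoskeletal proteins and transcription factors, and several are also released and signal through receptors such as RAGE and TLR4. Most of their genes lie in a cluster on the long arm of chromosome 1, and many are expressed in stratified and transitional epithelia.

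Expression moved in opposite directions within the family. S100A4, long studied as a metastasis-associated protein that binds nonmuscle myosin, and S100A13, which helps export FGF1 from the cell, rose in T24R2 cells, with log2 fold changes of 1.02 ± 0.20 and 0.73 ± 0.07 (SE). S100A2, an S100 protein found largely in the nucleus, and S100A10, the annexin A2 ligand also called p11, fell by 0.96 ± 0.10 and 0.59 ± 0.05 on the log2 scale. S100A6, the most abundant of the 10 in both lines, was at 1.34 times its T24 level, below the fold change that was called. A gene was called when the edgeR quasi-likelihood test gave a Benjamini-Hochberg adjusted p under 0.05, over all genes tested, and an absolute log2 fold change over 0.5. By that rule 2 of the 8 tested members were higher and 2 were lower in T24R2 cells, beside 24.9% of all tested genes called higher and 26.5% called lower, or 51.4% in all (4027 and 4282 genes). With libraries scaled to total counts alone, the genes called were 5206 higher and 3431 lower. The share of members called is thus close to that of all genes. At any fold change, 7 of the 8 had an adjusted p under 0.05, beside 75.5% of all tested genes. The median log2 fold change of the 8 was -0.29, beside 0.01 over all genes tested.

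Total counts ranged from 9257843 to 10840954 per library. Values are given as CPM, counts divided by the TMM-scaled library size in units of 1e6 counts, with n = 5 for each line. TMM factors were 0.936 to 0.951 in T24 and 1.04 to 1.07 in T24R2. T24R2 replicate 3 stood apart from its line. The chi-square per degree of freedom between its counts and those of the other T24R2 libraries was 4.19 to 7.10, against 2.01 to 3.54 among the other 4. Pairs of T24 libraries gave 2.09 to 4.70, which overlaps the range of replicate 3. It held the lowest T24R2 value for 5 of the 10 members (S100A2, S100A6, S100A10, S100A13 and S100A14), so those results are also given without it. Among 140 well expressed genes with under 1000 exon bases, the size class of several S100 genes, the median deviation of this library from its line was -0.05 on the log2 scale. The part of this in the members' values was not tested.

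The lines also differed in cell type markers. KRT7, KRT8 and KRT18, keratins of simple epithelium, were abundant in both lines but lower in T24R2. They averaged 2242, 1541 and 1112 CPM in T24 and 1370, 1009 and 691 in T24R2. KRT19 averaged 267 CPM in T24 and 0.0887 in T24R2, EPCAM 4.45 and 0.130, and the urothelial factor GATA3 22.1 and 0.214. CDH1 and UPK3A did not pass 3 counts in any library. Over the whole lists, the summed CPM of 6 epithelial markers was 4835 to 5568 in T24 and 2988 to 3187 in T24R2, and that of 6 urothelial markers was 106 to 110 and 24.6 to 33.1. The 7 immune markers summed to 0.648 to 2.58 and 0.393 to 1.47 CPM, with FCGR3A at 0 in every library, and the 5 fibroblast markers to 8.86 to 11.2 and 0.356 to 1.56 CPM. The 3 endothelial markers summed to 225 to 278 CPM in T24 and 1.60 to 2.50 in T24R2, with CDH5 at a mean of 239 CPM in T24. The part of these differences in the S100 values was not tested, and in bulk RNA a smaller share of cells expressing a gene and less RNA per cell cannot be told apart.

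Sequence of the 250 bases before a RefSeq start is shown for S100A2, S100A10 and S100A4. These are the called members with such a window that held no exon of the count tables. The windows of S100A13, the other called member, all held exon bases, as did a window of S100A2 at another start. The windows shown for S100A2 and S100A4 lie inside the spans of their genes, which reach further upstream. The sequences are from RefSeq on GRCh38.p14, the same assembly as the hg38 build of the tables, and read 5′ to 3′ on the minus strand, which carries all 3 genes. Capitals mark matches to 4 motifs searched on both strands, TATAAA (the TATA box), TGANTCA (the AP-1 motif), CCAAT (the NF-Y motif) and GGGCGG (the GC box). A window of this length held TATAAA in 10.7%, TGANTCA in 6.57%, CCAAT in 32% and GGGCGG in 42.6% of 35116 RefSeq promoters.
S100A2, chr1:153565845-153566094: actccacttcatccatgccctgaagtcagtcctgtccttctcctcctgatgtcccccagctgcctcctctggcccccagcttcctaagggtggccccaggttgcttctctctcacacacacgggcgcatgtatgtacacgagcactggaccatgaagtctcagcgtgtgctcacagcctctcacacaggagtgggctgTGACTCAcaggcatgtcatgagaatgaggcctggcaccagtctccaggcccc
S100A10, chr1:151993860-151994109: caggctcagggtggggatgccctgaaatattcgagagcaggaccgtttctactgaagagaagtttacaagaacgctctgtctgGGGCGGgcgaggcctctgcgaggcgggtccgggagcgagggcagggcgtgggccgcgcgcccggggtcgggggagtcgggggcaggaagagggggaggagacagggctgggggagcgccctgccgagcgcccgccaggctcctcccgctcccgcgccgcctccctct
S100A4, chr1:153545807-153546056: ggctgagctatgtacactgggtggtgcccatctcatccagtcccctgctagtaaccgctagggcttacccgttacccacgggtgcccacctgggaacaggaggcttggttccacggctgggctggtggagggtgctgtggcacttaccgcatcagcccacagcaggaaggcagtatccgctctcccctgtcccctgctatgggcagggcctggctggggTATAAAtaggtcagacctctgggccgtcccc
The S100A2 window held a TGANTCA match that began 52 bases before the start. The S100A4 window held TATAAA at 31 bases before the start, and the S100A10 window held GGGCGG at 167 bases. GC content was 59.2%, 62.8% and 71.2% for S100A2, S100A4 and S100A10. These matches are letters in a window and were not examined as binding sites.

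S100A4 (ENSG00000196154.12, chr1:153543613-153550136, hg38) was a low-count gene in both lines. The T24 libraries read 3.01, 2.42, 2.97, 2.26 and 3.67 CPM for replicates 1 to 5, and the T24R2 libraries read 5.32, 5.29, 5.47, 4.99 and 8.06. Every T24R2 library was above every T24 library, and T24R2 replicate 5 was well above the rest of its line. The level in T24R2 cells was 203% ± 44.0 of the T24 mean (SD, n = 5). The adjusted p from edgeR was 2.5e-05, and the 95% interval of the log2 fold change was 0.61 to 1.43. The raw counts behind it were 21 to 34 in T24 and 56 to 82 in T24R2.

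S100A13 (ENSG00000189171.15, chr1:153618787-153631360) read 52.9, 51.0, 43.7, 43.9 and 47.1 CPM in T24 and 83.5, 84.1, 63.2, 80.6 and 85.8 CPM in T24R2. The lines did not overlap, and T24R2 replicate 3 lay between the other T24R2 libraries and T24. The level in T24R2 was 166.5% ± 19.5 of T24 (SD, n = 5), with an adjusted p of 4.8e-12 by edgeR. Without T24R2 replicate 3 the log2 fold change was 0.81 ± 0.06 (SE). S100A13 shares 235 exon bases, 10.6% of its length, with S100A1 on the opposite strand. It shares 536 bases, or 24.2%, with ENSG00000271853 on the same strand, whose own counts were 0 to 3 per library. Reads were counted with strand option 1, but the library kit is not described as marking strand, so reads from bases shared with S100A1 may be assigned to either gene. Reads from the same-strand shared bases may be missing from the S100A13 counts, which was not tested. With all counts of S100A1 taken off, the log2 ratio of the S100A13 line means was 0.71, against 0.74 as counted, and the lines still did not overlap.

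S100A2 (ENSG00000196754.13, chr1:153561108-153567890) had the largest fall among the 8 tested members. It read 177.6, 181, 181, 191 and 199.7 CPM in T24 and 126, 112, 53.0, 100.1 and 86.5 CPM in T24R2. All T24R2 libraries lay below all T24 libraries, and they were spread much more widely, with an SD of 27.9 CPM against 9.04. T24R2 cells kept 51.3% ± 15.0 of the T24 level (SD, n = 5), and the adjusted p from edgeR was 5.7e-11. Without T24R2 replicate 3 the log2 fold change was -0.80 ± 0.06 (SE).

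S100A10 (ENSG00000197747.9, chr1:151982915-151993859) read 332, 322, 311, 279.9 and 307 CPM in T24 and 221, 204.5, 190.2, 208 and 207 CPM in T24R2. The lines were well apart, and T24R2 held 66.4% ± 3.49 of the T24 level (SD, n = 5). The adjusted p was 2.9e-14 by edgeR. Without T24R2 replicate 3 the log2 fold change was -0.56 ± 0.05 (SE). The 95% interval of its log2 fold change, -0.69 to -0.50, reached the fold change limit of the call. With libraries scaled to total counts alone, the fall was 0.43 on the log2 scale and S100A10 was not called.

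**Figure D1:**
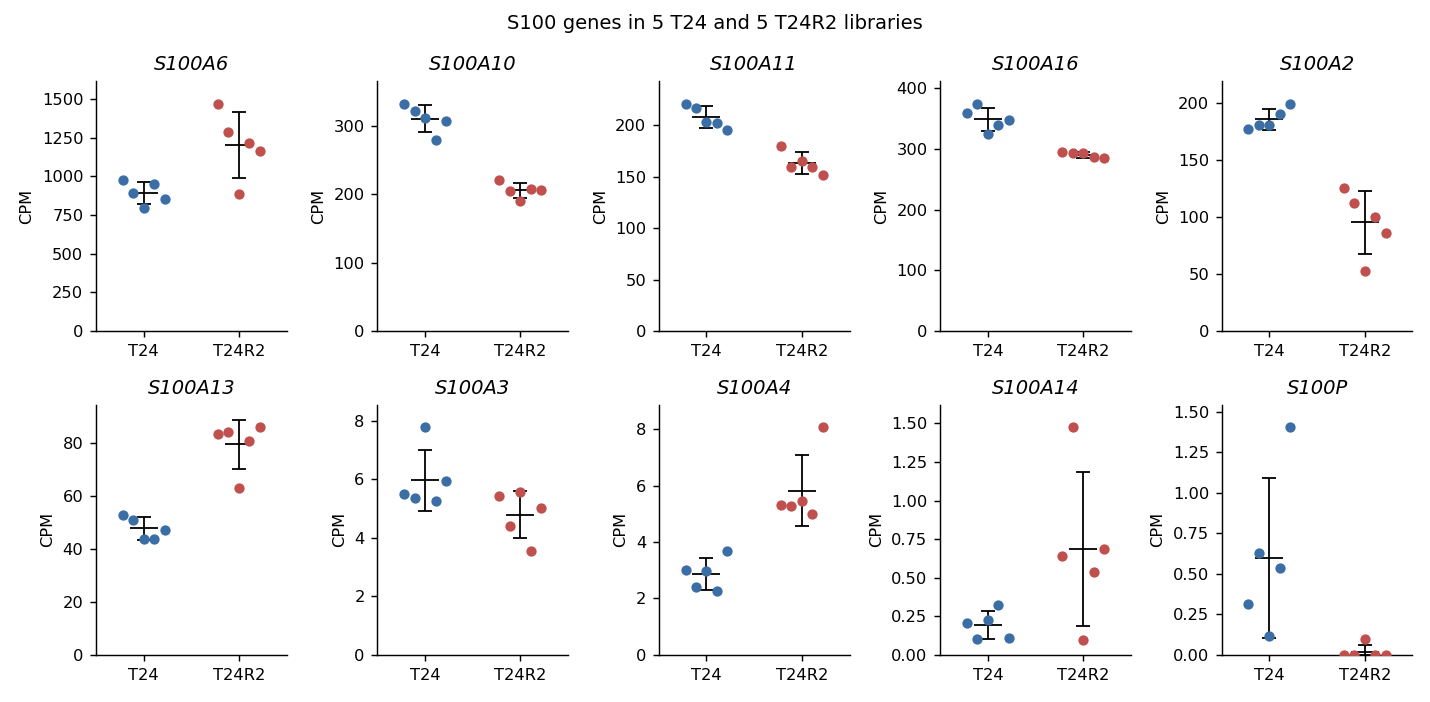
CPM of the 10 S100 genes in each library (points; replicates 1 to 5 from left to right), with T24 in blue and T24R2 in red. Each panel has its own linear axis from 0, and black bars give the mean and SD of 5 libraries, with lower ends drawn no further than 0. S100A4 and S100A13 sat higher and S100A2 and S100A10 lower in all T24R2 libraries, and T24R2 replicate 3 was the lowest T24R2 library for S100A2, S100A6, S100A10, S100A13 and S100A14.

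Of the 4 tested members that were not called, 3 had an adjusted p under 0.05 at a smaller fold change. S100A6 (ENSG00000197956.10, chr1:153534599-153536244), or calcyclin, binds the CACYBP protein and annexins. It read 973, 895, 798, 949.7 and 856 CPM in T24 and 1468, 1286, 885, 1213 and 1160 CPM in T24R2. In 4 of 5 T24R2 libraries it was above all T24 libraries, whereas replicate 3 lay within the T24 range. Its log2 fold change was 0.43 ± 0.07 (SE) with an adjusted p of 8.4e-07 by edgeR. The call turned on that library and on the scaling. Without T24R2 replicate 3 the log2 fold change was 0.52 ± 0.05 and S100A6 was called, as it was with scaling to total counts (0.59) and to upper quartiles (0.50). S100A6 shares 37 exon bases, or 3.81%, with the opposite-strand gene ENSG00000238279, whose counts were 24 to 55, and taking those off left the log2 ratio of the line means at 0.43.

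S100A11 (ENSG00000163191.6, chr1:152032506-152047907), an annexin A1 partner, read 196 to 221 CPM in T24 with a median of 203, and 152 to 179.9 in T24R2 with a median of 159.6. S100A16 (ENSG00000188643.11, chr1:153606886-153613145), a broadly expressed member, read 324.5 to 374 CPM in T24 with a median of 347, and 284 to 294 in T24R2 with a median of 292. For both genes the lines did not overlap, although they did when libraries were scaled to total counts. The log2 fold changes were -0.35 ± 0.05 and -0.27 ± 0.04 (SE), with adjusted p-values of 3.4e-08 and 7.1e-07 by edgeR. In T24R2 cells S100A16 had the smallest SD of the 10 relative to its mean, 1.54% of 290.0 CPM. Its raw counts there were 2892 to 3373, where counting error alone gives a spread of about that size, so the value is no trait of the gene.

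S100A3 (ENSG00000188015.10, chr1:153547329-153549258), best known from the hair cuticle, read 5.50, 5.37, 7.77, 5.27 and 5.94 CPM in T24 and 5.41, 4.42, 5.57, 3.56 and 5.02 CPM in T24R2. The lines overlapped. The log2 fold change was -0.31 with a 95% interval of -0.67 to 0.04 and an adjusted p of 0.105 by edgeR, so neither no difference nor a fall of the size seen for S100A10 lay outside the interval.

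The other 2 members were too low to be tested with all genes. S100A14 (ENSG00000189334.9, chr1:153614255-153616986), an epithelial S100 gene, had 2, 1, 2, 3 and 1 counts in T24 and 7, 17, 1, 6 and 7 in T24R2. All but 1 of the T24R2 libraries were above all T24 libraries. Summed over the libraries, 38 counts in T24R2 against 9 in T24 gave a ratio of 3.62 after scaling, with an exact 95% interval of 1.72 to 8.50 for counting error only. An exact two-sided permutation test of CPM gave p = 0.0476, and 0.00794 without T24R2 replicate 3, where the lines no longer overlapped.

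S100P (ENSG00000163993.7, chr4:6693878-6697170), a placental and tumour-associated protein that binds ezrin, is the member outside the chromosome 1 cluster. It had 3, 6, 1, 5 and 13 counts in T24 and 0, 0, 1, 0 and 0 in T24R2. The summed counts of 28 and 1 gave a ratio of 32.7 in favour of T24, with an exact 95% interval of 5.41 to 1337 for counting error only. The exact two-sided permutation p was 0.00794, the smallest that 5 against 5 libraries can give. The lines did not overlap in CPM, but the lowest T24 library and the highest T24R2 library each had 1 count, so that separation rests on the scaling. A library with 0 counts still allows up to 0.260 to 0.295 CPM in T24R2.

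Across the 10 members, the values of the lines did not overlap for 7, namely S100A2, S100A4, S100A10, S100A11, S100A13, S100A16 and S100P. Among all tested genes the share was 61.2%. S100P and S100A14 were below the count filter and are not among those genes, so the comparison is not on equal terms for these members. Without T24R2 replicate 3 the number was 9, with S100A6 and S100A14 added, beside 64.3% of all tested genes over the same libraries.

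**Figure D2:**
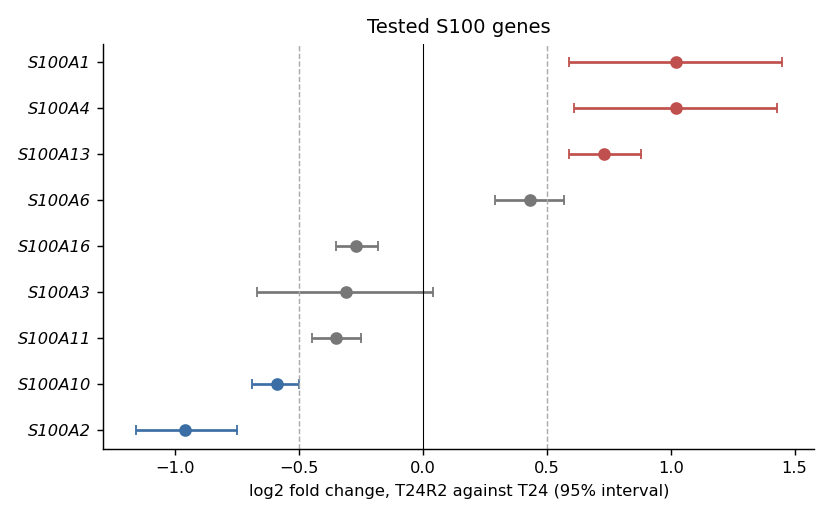
Log2 fold change of T24R2 against T24 for the 8 tested members and S100A1, with 95% intervals from edgeR as horizontal bars. Red genes were called higher, blue genes lower, grey genes were not called, and dashed lines mark a log2 fold change of 0.5 in either direction. Genes ran from -0.96 for S100A2 to 1.02 for S100A4 and S100A1. S100A5, which entered the test only through T24R2, is not drawn.

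Levels were compared between genes as CPM per kb of exon, since longer transcripts collect more reads. The length counts all annotated exons of a gene, not the transcripts expressed, and the order and shares depend on it. By CPM without length, S100A16 was above S100A10 and S100A11 in both lines, at 349, 310 and 208 in T24. S100A6 led in both lines, at 921 ± 72.7 CPM per kb in T24 cells and 1238 ± 219 in T24R2 cells (SD, n = 5). S100A11, S100A10, S100A16, S100A2 and S100A13 followed in that order in both lines. In T24 the means were 320 ± 16.3 for S100A11, 307 ± 19.5 for S100A10, 205 ± 11.1 for S100A16, 120 ± 5.85 for S100A2 and 21.5 ± 1.89 for S100A13. In T24R2 they were 251 ± 16.2, 204 ± 10.7, 170.5 ± 2.62, 61.8 ± 18.1 and 35.9 ± 4.20. S100A11 and S100A10 overlapped in T24 but not in T24R2. S100A2 and S100A13 were far apart in T24 and overlapped in T24R2, through the low value of S100A2 in replicate 3.

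At the lower end, S100A3 was above S100A4 in T24 without overlap of libraries, at 7.10 ± 1.24 against 3.03 ± 0.591 CPM per kb (SD, n = 5). In T24R2 S100A4 had the higher mean, 6.16 ± 1.33 against 5.70 ± 0.974, with overlapping libraries. S100P and S100A14 were last in both lines, and their libraries overlapped in both.

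The 10 genes summed to 1784 to 2031 CPM per kb in T24 and to 1601 to 2312 in T24R2, so the summed levels overlapped. Within that sum, S100A6 made up 48.3% ± 1.90 in T24 and 62.4% ± 3.26 in T24R2 (SD, n = 5). S100A10 went from 16.1% ± 1.04 to 10.4% ± 0.896, S100A11 from 16.8% ± 0.579 to 12.9% ± 1.70 and S100A2 from 6.33% ± 0.503 to 3.08% ± 0.576. These shares are bound together, since a higher share of one gene lowers those of the others, and were not tested.

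**Figure D3:**
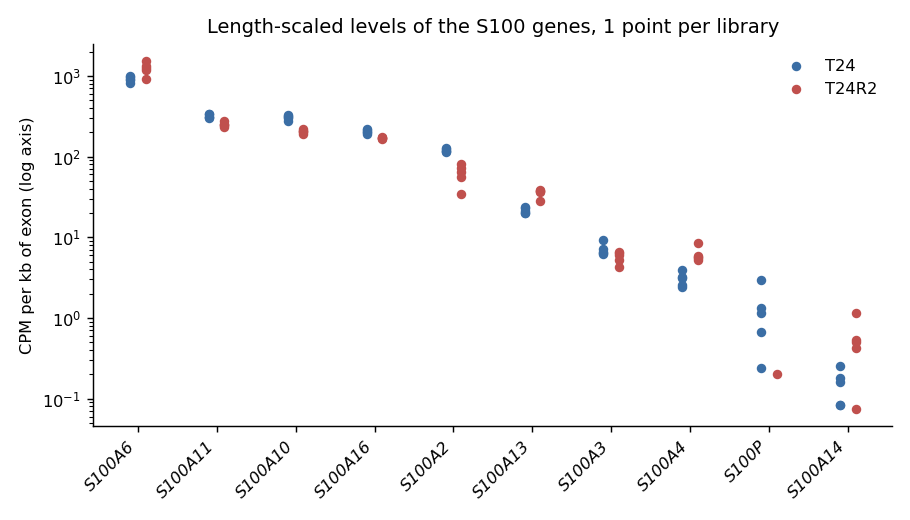
Length-scaled level (CPM per kb of exon, log axis) of each S100 gene, ordered by the T24 mean, with 1 point per library, T24 in blue and T24R2 in red. Libraries at 0, which were 4 of the T24R2 libraries for S100P, have no point on the log axis. S100A6 lay above every other member in both lines.

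Of 11 further S100 genes, 2 had enough counts to be tested. S100A1, a cardiac and skeletal muscle S100 protein, read 4.88, 3.05, 2.51, 2.90 and 2.38 CPM in T24 and 7.43, 7.46, 4.51, 7.93 and 4.62 in T24R2. The lines overlapped slightly, and the log2 fold change was 1.02 ± 0.21 (SE; adjusted p = 4.5e-05, edgeR). S100A1 lies opposite S100A13, which rose as well, and 7.76% of its exon bases are shared, so its counts may hold reads of S100A13, which was not tested. S100A5 had 8, 5, 3, 4 and 6 counts in T24 and 18, 13, 20, 14 and 29 in T24R2. The lines did not overlap. S100A5 entered the test only through T24R2, where it was high, so its values are a description, and the summed counts of 26 and 94 gave a ratio of 3.10 with an exact 95% interval of 1.99 to 4.98 for counting error only.

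The remaining 9 were near or at 0. S100A8, S100A9 and S100A12, the calprotectin subunits and calgranulin C of myeloid cells, had 0 counts in all libraries, as did S100A7A, S100A7L2, S100B and S100Z. S100A7, or psoriasin, had 1 count in a single T24 library. S100G, the vitamin D-responsive calbindin, had 14, 12, 7, 12 and 14 counts in T24 and 0 in every T24R2 library. Summed over the libraries, 59 counts against 0, the exact 95% interval of the ratio began at 18.1-fold higher in T24, for counting error only.

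Binding partners were taken as a list of 28 S100 targets and receptors, of which 25 were tested. Of these, 5 were called higher and 9 lower, with a median log2 fold change of -0.09 beside 0.01 over all genes. The 56% of tested partners that were called is near the 51.4% of all genes. The list was chosen with earlier results of these data known.

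Of the 5 annexin genes in the list, 2 were called, both lower in T24R2 cells. ANXA2, the main S100A10 ligand, went from 5565 ± 170.2 CPM in T24 cells to 3132 ± 108 in T24R2 cells (SD, n = 5) and fell by 0.83 on the log2 scale. AHNAK, a very large scaffold protein bound by the S100A10 and annexin A2 complex, fell by 1.02, from 3154 to 1558 mean CPM. ANXA11, which binds S100A6, fell by 0.93. PLAT, the tissue plasminogen activator that can dock on S100A10, fell by 3.98 on the log2 scale, the largest fall of the list, from 2191 ± 103 to 139 ± 6.96 CPM. EZR, the ezrin gene, fell by 0.56, and was not called with scaling to total counts (-0.39) or upper quartiles (-0.48). BSG, a receptor for S100 proteins, STUB1, a ubiquitin ligase bound by S100 proteins, HLTF and the receptor TLR4 fell by 1.71, 0.73, 1.35 and 1.28.

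ANXA1, the S100A11 partner, was not called, with a log2 fold change of 0.25 ± 0.04 (SE). MYH9, the nonmuscle myosin heavy chain that S100A4 binds, was at 3965 ± 59.8 CPM in T24 cells and 4194 ± 114 in T24R2 cells (SD, n = 5), a log2 difference of 0.08. CACYBP, the S100A6 partner, and IQGAP1, a scaffold bound by S100P, had log2 fold changes of 0.32 and 0.24 and were not called either.

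FGF1, whose export involves S100A13, rose from 7.80 ± 1.20 to 19.3 ± 2.22 CPM (SD, n = 5), a log2 fold change of 1.30. NCL, the nucleolin gene, rose by 0.67 on the log2 scale. KCNK3, a potassium channel that S100A10 helps traffic, had at most 5 counts in any T24 library and averaged 55.5 ± 5.09 CPM in T24R2, with a fitted log2 fold change of 8.07. That value rests on the few T24 counts and was 8.84 without T24 replicate 2, and KCNK3 entered the test through T24R2. AGER, the gene of RAGE, had a log2 fold change of 0.58 with an adjusted p of 0.023 by edgeR at 26 counts or fewer per T24 library. AGER lost its call without T24 replicate 2 (0.45) and without T24R2 replicate 2 (0.45).

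The balance between an S100 gene and its annexin was examined for 2 pairs, as the log2 ratio of CPM per kb in each library. S100A10 against ANXA2, which assemble into a heterotetramer at the plasma membrane, read -0.59, -0.62, -0.64, -0.72 and -0.68 in T24 and -0.31, -0.39, -0.61, -0.38 and -0.37 in T24R2. In 4 of 5 T24R2 libraries the ratio was above that of all T24 libraries, and replicate 3 lay within the T24 range. Both genes were lower in T24R2 cells, ANXA2 by more, so the ratio was higher by 0.24 ± 0.06 (SE of the difference). An exact two-sided permutation test gave p = 0.0159, also after adjustment over the 2 ratios. Without T24R2 replicate 3 the difference was 0.29. Reads of ANXA2 can be shared with its processed pseudogenes, of which ANXA2P2 had 197 to 414 counts per library against 31114 to 55153 for ANXA2.

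S100A11 against ANXA1 went the other way. The ratio read 2.40, 2.26, 2.24, 2.29 and 2.15 in T24 and 1.82, 1.69, 1.62, 1.60 and 1.62 in T24R2, without overlap. It was lower in T24R2 by 0.60 ± 0.06 on the log2 scale, with an exact two-sided permutation p of 0.00794 and 0.0159 after adjustment over the 2 ratios.

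**Figure D4:**
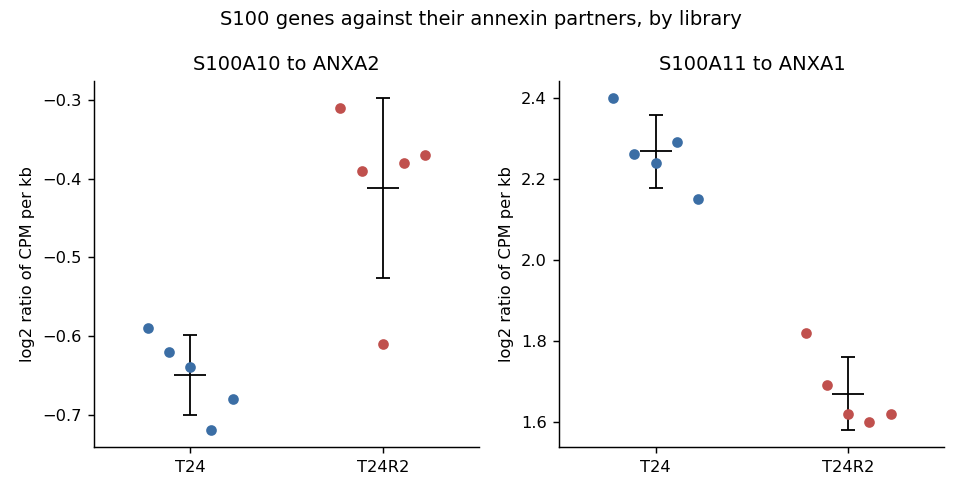
Log2 ratio of CPM per kb of S100A10 to ANXA2 (left) and of S100A11 to ANXA1 (right) in each library, with the mean and SD of 5 libraries in black. The axes do not start at 0 and differ between panels. The ratio was higher in T24R2 for S100A10, apart from replicate 3 at -0.61, and lower in every T24R2 library for S100A11.

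Other EF-hand calcium-binding genes were taken as a list of 37, of which 30 were tested. Of these, 5 were called higher and 13 lower, or 60% in all beside 51.4% of all tested genes, 24.9% higher and 26.5% lower. The median log2 fold change was -0.44 beside 0.01 over all genes. With scaling to total counts the split was 9 higher and 8 lower, so the balance of directions depended on the scaling. The largest falls were those of MYL9, a myosin regulatory light chain (from 107 ± 5.25 to 21.4 ± 2.40 CPM; -2.31), GCA, the grancalcin gene (-2.21), and NUCB2, the nucleobindin 2 gene (-2.20). The largest rise was that of RCN2, a reticulocalbin of the endoplasmic reticulum, from 71.0 ± 5.38 to 147 ± 9.18 CPM (1.05). CALML4 (0.93, at 27 counts or fewer per T24 library) and HPCAL1, a neuronal calcium sensor relative (0.90), followed. CALML4 did not reach the level of the count filter in all libraries of both lines and entered the test through T24R2. Its rise is thus a description, and it is 1 of the 5 genes called higher.

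Of the calmodulin genes, CALM3 fell by 0.67 on the log2 scale, from 452 ± 23.4 to 283 ± 7.47 CPM (SD, n = 5). CALM2 had a log2 fold change of 0.36 and was not called, but was called at 0.53 with scaling to total counts.

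Of the 10 members, 9 lie on the minus strand of chromosome 1, S100A10 and S100A11 near one another and the other 7 in the main cluster. Directions alternated along it. In order of position, S100A10 and S100A11 were lower, S100A6 and S100A4 higher, S100A3, S100A2 and S100A16 lower, and S100A13 and S100A1 higher, where S100A3, S100A6, S100A11 and S100A16 were not called. Among the genes within 250 kb of these members, other than S100 genes, 19 of 58 were tested, and 8 were called higher and 0 lower, with a median log2 fold change of 0.43 beside 0.01 over all genes. The 8 included NPR1 and ENSG00000249602, which did not reach the level of the count filter in all libraries of both lines and entered the test through T24R2. Some of the 8 lie near S100A10 and S100A11 and others near the main cluster. Some tested neighbours also overlap one another in position, so the 8 are not separate observations. Over all tested genes 24.9% were called higher and 26.5% lower. At any fold change 14 of the 19 had an adjusted p under 0.05 by edgeR, near the 75.5% of all tested genes. No neighbour was called lower by DESeq2 or limma-voom (0 genes), and 0 had a lower level at an unadjusted p under 0.05 in edgeR.

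The largest rise among the neighbours was that of NPR1, the natriuretic peptide receptor gene, which had at most 5 counts in any T24 library and reached 14.7 ± 1.98 CPM in T24R2 (SD, n = 5). Its fitted log2 fold change of 6.15 was 6.93 without T24 replicate 5. ENSG00000249602 and THEM4, a mitochondrial thioesterase gene, had log2 fold changes of 1.59 and 1.24. ENSG00000285867, the neighbour with the lowest log2 fold change, lies between S100A2 and S100A16 and read -0.33 ± 0.20 (SE; adjusted p = 0.131, edgeR). It was called lower, as the 1 such neighbour, without T24 replicate 1.

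**Figure D5:**
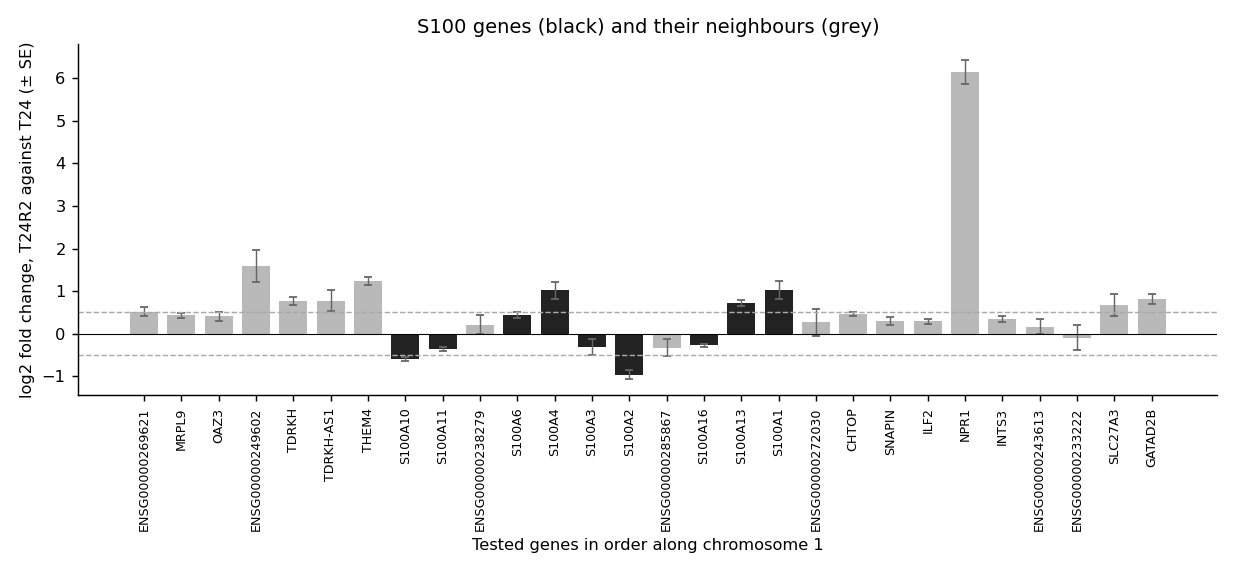
Log2 fold change of T24R2 against T24, with its SE as an error bar, for the tested S100 genes of chromosome 1 other than S100A5 (black) and the tested genes within 250 kb of them (grey), in their order along the chromosome and not to scale of distance. Dashed lines mark a log2 fold change of 0.5 in either direction. Neighbours ran from -0.33 to 6.15, and S100 genes pointed both ways within the cluster.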

How the data were processed

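RNA-seq libraries of T24 and T24R2 cells, 5 each, were compared. According to the submitters' processing notes and the file headers, the authors aligned reads to hg38 with STAR 2.7.0, used SAMtools 1.10 to keep uniquely mapped reads without duplicates, and assigned fragments to GENCODE release 39 genes in featureCounts 2.0.1 at strand option 1. The deposited values are raw counts, without normalization. Removal of duplicates by position can take more reads from short, abundant genes, and unique mapping leaves out reads shared with copies. Neither can be examined in count tables.

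Of 61533 genes, 61369 had a symbol by Ensembl identifier, and 33622 had a count. Genes were filtered with filterByExpr, TMM-scaled and tested with glmQLFit and glmQLFTest of edgeR 4.0.16 in R 4.3.3, with Benjamini-Hochberg adjustment over 16181 genes. Calls used the study's thresholds, an adjusted p under 0.05 with an absolute log2 fold change above 0.5. Single values used exact two-sided permutation tests over libraries, and SciPy 1.17.1 gave exact intervals. At 3 counts or fewer a gene was treated as at the floor. Floors and intervals cover counting error only. No 2 replicates agreed within counting noise (chi-square per degree of freedom at least 2.01).

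The members and lists were chosen with earlier results of these data known. Text names the members, the other tested S100 genes, called partners with ANXA1, MYH9, CACYBP and IQGAP1, CALM2 and CALM3, the 3 largest called rises and falls of the EF-hand list and of the neighbours, and genes sharing exon bases with a member. ENSG00000285867, S100G and the untested S100 genes were named after their values were seen. A few genes in the lists are counted but their own results are not reported here. Alternatives were other scalings, DESeq2 1.42.0 (also with apeglm 1.24.0), limma-voom (limma 3.58.1), other filters and thresholds, a replicate block, opposite-strand counts taken off, and leaving out each library. On simulated counts of 15937 genes for this comparison, edgeR called 196 of 200 changed genes and 2 unchanged ones. The simulation changed far fewer genes than were called in the data, equally in both directions and by more than the fold change limit. It also gave all genes the same spread. It therefore cannot speak for calls near that limit or for the scaling. Python 3.11.15 and matplotlib 3.10.9 were used for tables and plots.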

Additional observations from a re-analysis of the deposited data

Results flagged for a closer look

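Within a line, a library was set apart when its gap to the nearest other library was large against the range of the 5. Of 24 groups of 5 values (10 genes and 2 ratios in each line), 5 held such a library. Chance gives about 1 in 20 for independent continuous values. The groups are not independent, since they share libraries and the ratios reuse members. S100A3 was highest in T24 replicate 3, at 7.77 CPM where the other 4 read 5.27 to 5.94. S100A4 was highest in T24R2 replicate 5, at 8.06 CPM against 4.99 to 5.47. T24R2 replicate 3 accounted for the other 3 groups. It had the lowest S100A13 level of its line, 63.2 CPM against 80.6 to 85.8. It was the only T24R2 library with an S100P read, 1 count or 0.0960 CPM against 0. A single read among libraries at 0 is always set apart by this rule. Its log2 ratio of S100A10 to ANXA2 was -0.61 against -0.39 to -0.31.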

How the results depend on the processing

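S100A2 and S100A13 were called, in the same direction, under all 20 other fits. S100A4 was called in all in which it was tested, and S100A10 in all but the scaling to total counts. That scaling moved the median of all genes to 0.18 on the log2 scale and called 5206 genes higher and 3431 lower, against 4027 and 4282; 1 member and 8 EF-hand genes were then called lower and 9 EF-hand genes higher. A mean of at least 100 counts, which tests fewer genes, left 4991 genes called, with 1 member and 5 neighbours higher and 0 other S100 genes. Without a fold change minimum, 12212 genes were called, or 75.5% of all tested genes. In that setting 4 members were lower, 10 partners, 9 EF-hand genes and 14 neighbours higher and 20 EF-hand genes lower. At an absolute log2 fold change over 1, 4211 genes were called, with 1 member, 2 partners, 1 EF-hand gene and 3 neighbours higher, and 0 members, 5 partners and 7 EF-hand genes lower. Without the count filter S100A14 (1.77, adjusted p = 0.0206, edgeR) and S100P (-4.31, adjusted p = 7.8e-05, edgeR) were called as well. That setting called 10919 of the 33622 genes with a count. Leaving out single libraries gave 2 to 3 members called higher, 2 lower, 7 to 9 not overlapping, 0 to 1 neighbours lower, and ratio differences of 0.21 to 0.29 (S100A10 to ANXA2) and -0.64 to -0.57 (S100A11 to ANXA1). Over all genes, 8398 to 8466 were called in these fits. Same-numbered libraries did not deviate together (correlations of -0.0218 to 0.0165, 2 of 10 libraries closest to their own number). No source used here says what they share, and these correlations cannot tell whether they share a culture or a day of preparation. With the replicate block the calls of the members were the same, and the ratio differences were 0.24 and -0.60, each with an exact sign-flip p of 0.0625, the smallest that 5 pairs can give. S100A14 and S100P were below the count filter, and depth limits their values. The cause of the changes with scaling was not tested.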
